A study of Homo sapiens with 3 samples.

Results

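The regions described here are 638 of the 19039 PHF13 peaks called in PANC-1, an established line of human pancreatic ductal carcinoma cells. Each of them shares at least 1 bp with a peak of the EZH2 list, lies at least 1 Mb from every hg19 assembly gap of 1 Mb or more, and has its summit over 5000 bp from every transcription start site (TSS) of GENCODE release 44. The summit is the position of highest coverage in a peak. They are called the shared distal peaks below. They were chosen by a measured value, the overlap of the called peaks, so that overlap and the heights behind it are given as a description only. They met 622 of the 21639 EZH2 peaks, since 29 shared their EZH2 peak with another member and 7 met more than 1. Outside the large gaps, the shared distal peaks made up 6.1% of 10463 distal PHF13 peaks. The same share was 8.92% of 6886 PHF13 peaks near a TSS, 57.9% of 1690 peaks beside large gaps, and 11.7% over the whole list.

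The peaks came from chromatin immunoprecipitation and sequencing (ChIP-seq) of wild-type PANC-1 cells, for which no treatment is listed. The series holds 3 libraries: 1 for PHF13, 1 for EZH2 and 1 of input chromatin, which served as the control in peak calling. With 1 library per antibody there is no spread between replicates, so no p-value over peaks is given. Intervals are 95% intervals that cover counting error only, and peaks of 1 repeat family are not independent of each other.

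PHF13 is a PHD-finger protein that reads methylated lysine on histone H3, and EZH2 is the methyltransferase of Polycomb repressive complex 2 (PRC2), which marks silenced developmental genes. Away from gene starts, much of the human genome consists of repeats. Some are dispersed, such as Alu elements. Others stand in tandem, such as the alpha satellite of centromeres. Ribosomal DNA is a long array of near-identical units on the acrocentric chromosomes, and the reference assembly carries only fragments of it.

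The sequence at the summits is shown first, because it is what most of the shared distal peaks had in common. Each line gives 200 bp at a PHF13 summit on the plus strand of hg19. The first set holds strong peaks of tandem sequences found among the members. Capitals mark the first repeat unit in the lines named by a unit length of 170, 40 or 34 bp, and every copy of AGCC or GGAAT in the lines of those units.
170-bp unit, near TRIM51G, chr11:48817844-48818043: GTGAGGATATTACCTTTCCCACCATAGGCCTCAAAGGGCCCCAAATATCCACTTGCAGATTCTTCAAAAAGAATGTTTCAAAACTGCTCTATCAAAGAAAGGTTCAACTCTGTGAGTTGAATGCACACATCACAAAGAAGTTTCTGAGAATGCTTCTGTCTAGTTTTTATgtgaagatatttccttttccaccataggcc
40-bp unit, intron of TTC34, chr1:2629078-2629277: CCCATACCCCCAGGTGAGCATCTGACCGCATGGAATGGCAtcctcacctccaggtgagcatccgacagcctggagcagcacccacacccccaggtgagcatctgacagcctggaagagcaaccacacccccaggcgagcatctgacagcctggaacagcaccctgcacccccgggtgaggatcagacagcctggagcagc
34-bp unit, intron of TMEM242, chr6:157731800-157731999: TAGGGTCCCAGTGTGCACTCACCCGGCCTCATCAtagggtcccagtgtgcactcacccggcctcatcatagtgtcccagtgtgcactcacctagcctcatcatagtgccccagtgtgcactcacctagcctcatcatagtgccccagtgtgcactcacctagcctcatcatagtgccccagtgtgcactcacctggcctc
AGCC unit, between genes, chr2:87623768-87623967: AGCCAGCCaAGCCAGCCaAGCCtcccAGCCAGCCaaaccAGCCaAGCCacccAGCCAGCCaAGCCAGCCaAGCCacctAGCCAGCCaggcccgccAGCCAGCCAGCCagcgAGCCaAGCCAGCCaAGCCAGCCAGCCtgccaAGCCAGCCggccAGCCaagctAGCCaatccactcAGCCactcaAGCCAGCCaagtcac
GGAAT unit, intron of MAMDC2-AS1, chr9:72653150-72653349: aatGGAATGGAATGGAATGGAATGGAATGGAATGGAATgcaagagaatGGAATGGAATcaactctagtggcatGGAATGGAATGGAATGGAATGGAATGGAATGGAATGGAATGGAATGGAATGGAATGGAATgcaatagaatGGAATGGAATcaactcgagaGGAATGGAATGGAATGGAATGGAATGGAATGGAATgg
These repeats differed widely in composition. The AGCC line had a GC content of 67.5% and the 170-bp line one of 39.5%. The 40-bp line lies in a peak that matched itself best at 200 bp, a multiple of its unit.

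The second set holds peaks whose median 24-mer occurs once in hg19, its unplaced contigs included. In the first pair, capitals mark the bases that differ from ribosomal DNA on the unplaced contig GL000220.1, to which they align with 93.5% and 93.6% identity. In the second pair, capitals mark CpG dinucleotides.
Intron of the lncRNA ENSG00000258807, closest coding gene GALC, chr14:88237588-88237787: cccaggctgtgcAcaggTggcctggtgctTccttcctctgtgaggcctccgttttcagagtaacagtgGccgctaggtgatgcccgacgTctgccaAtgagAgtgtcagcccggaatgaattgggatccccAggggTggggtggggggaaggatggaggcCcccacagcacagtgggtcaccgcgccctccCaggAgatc
Intron of MYO1D, chr17:31149624-31149823: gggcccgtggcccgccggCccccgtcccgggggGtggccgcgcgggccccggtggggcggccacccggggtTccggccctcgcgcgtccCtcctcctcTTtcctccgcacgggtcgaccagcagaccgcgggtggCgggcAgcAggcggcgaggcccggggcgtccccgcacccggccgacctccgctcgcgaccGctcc
Intron of PSMD14-DT, closest coding gene TANK, chr2:162095459-162095658: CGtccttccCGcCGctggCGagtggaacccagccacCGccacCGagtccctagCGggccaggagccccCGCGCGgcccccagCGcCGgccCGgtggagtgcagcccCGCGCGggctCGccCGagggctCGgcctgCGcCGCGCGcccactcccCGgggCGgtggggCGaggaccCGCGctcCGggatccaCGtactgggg
Intron of PLEKHA7, chr11:16946959-16947158: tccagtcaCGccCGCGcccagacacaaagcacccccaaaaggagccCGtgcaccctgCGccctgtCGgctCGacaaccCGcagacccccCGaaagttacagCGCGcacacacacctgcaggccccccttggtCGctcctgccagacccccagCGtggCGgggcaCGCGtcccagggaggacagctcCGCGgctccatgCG
The last pair are the exception rather than the rule: their 200 bp held 30 and 19 CpG and no repeated 24-mer was found in the 100 bp at either summit.

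Most shared distal peaks lay on repeated sequence. To measure this, hg19 with its unplaced contigs was searched for each 24-mer in the 100 bp at a summit, and a peak was called multi-copy when its median 24-mer occurred more than once. Of 636 readable members, 544 (85.5%, interval 82.6 to 88.1) were multi-copy. The same held for 2696 of 9824 distal PHF13 peaks without EZH2 (27.4%), a difference of 58.1 percentage points (interval 55.0 to 60.8). Shared peaks near a TSS were multi-copy in 73.3% and shared peaks beside large gaps in 92.1%. The distal members stood between these groups, 12.2 points above the former (interval 7.79 to 16.7) and 6.58 points below the latter (interval 3.45 to 9.90). On the EZH2 side, 542 of 630 shared distal peaks (86.0%) were multi-copy at the EZH2 summit, against 2840 of 9923 EZH2-only distal peaks (28.6%).

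Tandem repeats stood apart from dispersed ones. A summit was called tandem when its 500 bp matched themselves at 50% or more of positions after a shift of under 250 bp. That was so for 267 of 633 readable members (42.2%, interval 38.4 to 46.1) and for 186 of 9818 PHF13-only distal peaks (1.89%), a difference of 40.3 points (interval 36.5 to 44.2). The share was higher in shared peaks beside large gaps (55.9%, 13.7 points above the members, interval 8.69 to 18.6) and lower in shared peaks near a TSS (18.0%). Among the members, 48 repeated at about 171 bp, the unit length of alpha satellite, and 219 at another period, most often 40 bp (18 members), 4 bp (12 members) and 26 bp (10 members). A further 291 were multi-copy but not tandem, 40 were single-copy with some repeated 24-mers in the window, and 35 had no repeated 24-mer. The sequence of 5 members could not be read in full.

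Read from the side of the PHF13 list, the share of distal peaks that met an EZH2 peak depended on these kinds of sequence. It was 75% for repeats of about 171 bp (48 of 64, interval 63.2 to 84.0). It was 56.3% for other tandem repeats (219 of 389, interval 51.3 to 61.1) and 10.3% for dispersed multi-copy sequence (291 of 2816). It fell to 2.38% for single-copy summits with some repeated 24-mers (40 of 1680) and to 0.636% for summits unique throughout (35 of 5502, interval 0.458 to 0.883). Against the background of 6.1%, the tandem kinds were far above and both single-copy kinds below.

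**Figure D1:**
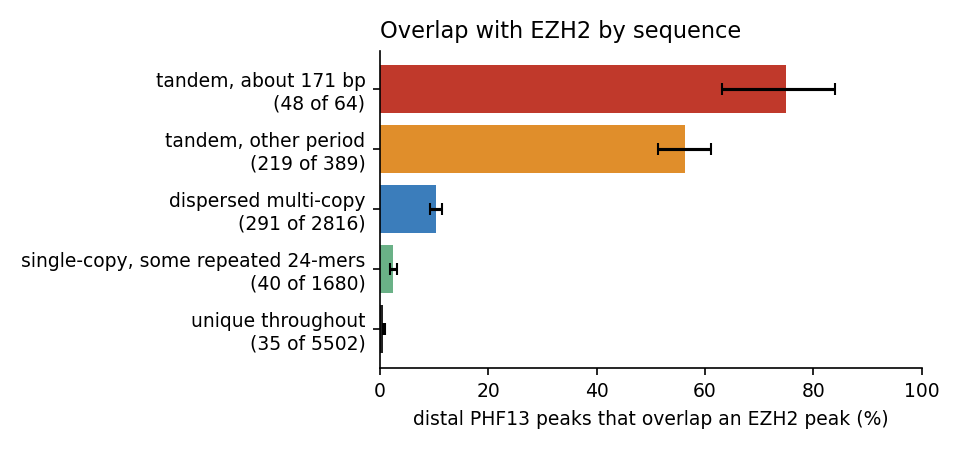
Share of distal PHF13 peaks outside large gaps that overlap an EZH2 peak (%), by the sequence at the PHF13 summit, with 95% Wilson intervals. The share runs from 75% on repeats of about 171 bp to 0.636% on summits unique throughout; the 12 peaks without fully readable sequence are left out.

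The share did not simply grow with copy number. It was 1.27% where the median 24-mer occurred once (92 of 7220) and 21.3% at over 1 to 5 copies (194 of 909). It was highest, 28.0%, at over 5 to 50 copies (239 of 855), then 10.8% at over 50 to 1000 (79 of 734) and 4.31% above 1000 copies (32 of 742). Over the members, the median 24-mer occurred at a median of 7 places (quartiles 3 and 22).

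The repeated sequence was densest under the summit and reached beyond the peaks, whose median width was 236 bp. In 100-bp windows, the multi-copy share of the shared distal peaks was 85.5% at the summit, 75.6% at 200 bp upstream on the chromosome and 74.6% at 200 bp downstream. At 4000 bp it was still 62.2% upstream and 62.4% downstream. PHF13-only distal peaks went from 27.4% at the summit to 22.3% and 21.8% at 4000 bp. Both groups had their maximum at the summit.

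**Figure D2:**
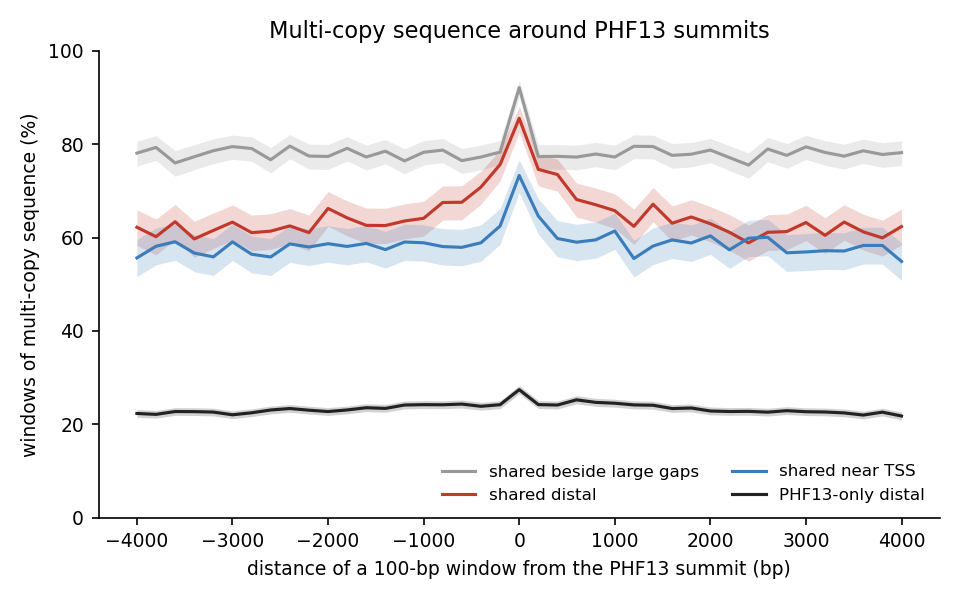
Share of 100-bp windows with multi-copy sequence (%) by distance from the PHF13 summit (bp), with 95% Wilson bands, for 4 groups of PHF13 peaks. The shared distal line rises to 85.5% at the summit from 62.2% and 62.4% at 4000 bp, and the PHF13-only distal line is at 27.4% at the summit and 22.3% and 21.8% at 4000 bp.

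Many members were copies of one another. When the 200 bp at each summit were aligned (blastn, at least 80% identity over at least 100 bp), 268 members (42.0%) matched another member. They formed 52 families, and the 5 families of 10 or more held 145 members. The largest had 51 members on chromosomes 9 (27), 16 (11), 11 (7), 2 (4) and 4 (2). In it, 47 summits repeated at 169 to 173 bp, GC content had a median of 36.6%, and 8 held the box bound by CENP-B, the sequence-specific protein of alpha satellite. That box was found in 1.26% of the 636 readable members, against 10.7% of shared peaks beside large gaps (105 of 977). It was in 1 of 614 shared peaks near a TSS and in no PHF13-only distal peak (0 of 9824). The family had median fold enrichments of 6.15 for PHF13 (range 2.22 to 23.2) and 5.75 for EZH2 (range 2.17 to 25.1), with summits a median of 11 bp apart.

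The second family, of 38 members on 15 chromosomes, was dispersed. A word of the Alu consensus, GTGGCTCA or TGTAATCCC on either strand, stood in the 500 bp at the summit of 36 of its 38 members. No share of these words in other peaks is given, so the count alone does not identify the family. The folds of this family were lower, with medians of 3.08 for PHF13 and 3.28 for EZH2. The 3 other large families were tandem throughout. One of 23 members, rich in AGCC, lay mostly on chromosome 2 (16 members) and had medians of 4.30 and 3.8. One of 19 members lay within an intron of TTC34 on chromosome 1, with medians of 2.98 and 3.06 over a high local background of 34.6 fragments for PHF13. One of 14 members was GC-rich (median 81.4%), spread over 8 chromosomes, and had medians of 4.33 and 3.90.

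Some smaller families had higher folds. In a family of 7 members, 6 held copies of GGAAT, the unit of the human satellites beside some centromeres. The family had medians of 6.13 for PHF13 and 7.47 for EZH2. Counted over all readable members rather than this family, adjacent copies of GGAAT occurred in 7 of 636 (1.10%). They occurred in 8 of 9824 PHF13-only distal peaks (0.0814%) and in 95 of 977 shared peaks beside large gaps (9.72%). The 3 members with a 34-bp unit in an intron of TMEM242 had medians of 8.68 and 9.15. A family of 3 members at chromosome ends held the telomere word TTAGGG in adjacent copies. It comprised the members next to ANHX on chromosome 12, with 23.5-fold for PHF13 and 15.9-fold for EZH2, DUX4 on chromosome 4, with 12.4-fold and 4.80-fold, and PLEKHG4B on chromosome 5, with 6.47-fold and 6.25-fold. In each of them PHF13 was the higher.

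Several of the strongest members had few exact copies but aligned, with mismatches, to contigs that the assembly does not place on a chromosome. When 200 bp at each summit were aligned to the unplaced contigs, 312 members (49.1%) matched one at 80% identity or more, against 26.9% of PHF13-only distal peaks, a difference of 22.1 points (interval 18.1 to 26.1). One contig, GL000220.1, matched 15.9% of members and 18.0% of PHF13-only distal peaks over its whole length, a difference whose interval included 0 (−4.91 to 0.968 points). It carries ribosomal DNA: annotated 5.8S rRNA pseudogenes aligned to it in a pair of places 43972 bp apart. Between those places, 26 members (4.09%, interval 2.80 to 5.92) aligned with at least 85% identity over at least 140 bp and had a median 24-mer with at most 10 exact copies. They lay on 12 chromosomes, and for 14 of the 26 that 24-mer occurred once. Only 8 PHF13-only distal peaks met the same limits, so that 76.5% of such distal PHF13 peaks (26 of 34, interval 60 to 87.6) met an EZH2 peak. All of these limits were chosen after seeing the data, and only the identity was varied. Of the 26, 9 lay in 1 stretch of chromosome 2 and 3 in 1 stretch of chromosome 16. The peaks are thus not independent, which the interval does not take into account. The share depended on the identity required. It was 38.9% at 80% identity (28 of 72, interval 28.5 to 50.4) and 86.4% at 90% (19 of 22, interval 66.7 to 95.3).

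The ribosomal-like members were among the strongest. The member in the intron of ENSG00000258807, whose closest coding gene is GALC (a lysosomal galactosylceramidase, 178555 bp away), reached 23.5-fold for PHF13 and 20.8-fold for EZH2. At its summit, 135 PHF13 fragments stood over a background of 4.80 and 112 EZH2 fragments over 4.42. The member in an intron of MYO1D, an unconventional myosin, reached 22.8-fold and 18.6-fold. The member in an intron near SULF1, a heparan sulfate endosulfatase, reached 19.9-fold and 20.1-fold. Both libraries were high at all 3. At other copies PHF13 was the higher: 15.5-fold against 8.86-fold near VAV3, 13.5-fold against 7.55-fold near FAM184A, and 13.2-fold against 9.04-fold in an intron near PID1. The copy at DLG2, a synaptic scaffold gene, had 17.3-fold and 13.5-fold, whereas those at CARTPT (17.2 and 16.9), HFM1 (16.5 and 17.0) and LCOR (15.5 and 16.1) were almost level.

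Local background separated these copies. The 14 outside stretches on chromosomes 2 and 16, 10 of them in introns, had median folds of 15.5 for PHF13 (range 5.02 to 23.5) and 11.3 for EZH2 (range 4.06 to 20.8), over PHF13 backgrounds of 4.23 to 14.3 fragments. The 9 in a stretch beside ANKRD30BL on chromosome 2 had median folds of 3.75 and 2.73 over PHF13 backgrounds of 17.0 to 51. The 3 on chromosome 16 had medians of 5.09 and 4.78 over 32.7 to 37.1. All 12 copies with high background had folds below the median of the 14 others. Fold is a ratio to that background, so it does not compare the heights themselves. Those overlapped, at 52 to 228 PHF13 fragments in the 12 and 43 to 212 in the 14.

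**Figure D3:**
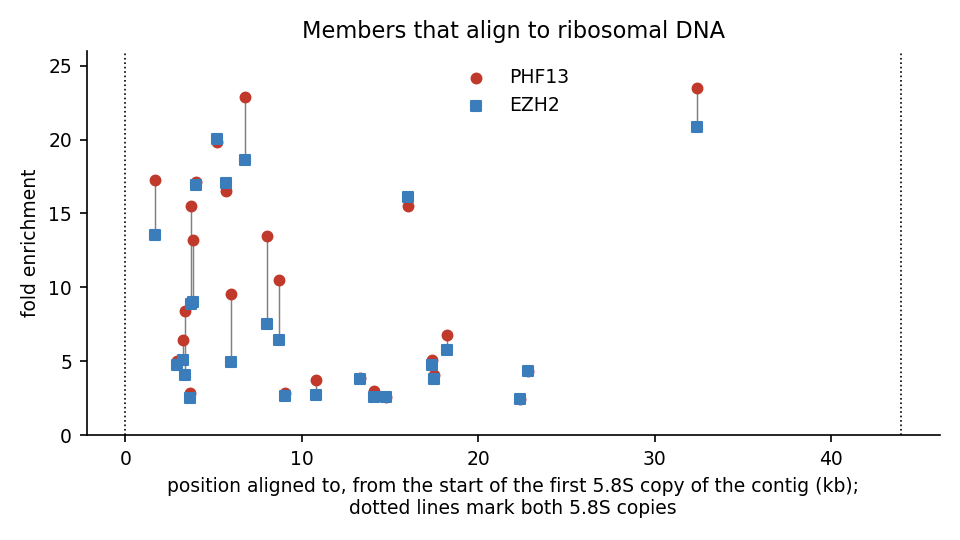
Fold enrichment for PHF13 and EZH2 of the 26 shared distal peaks that align to ribosomal DNA, by the position they align to on the contig, in kb from the start of its first 5.8S copy. Of the copies of 10-fold or more in PHF13 (11 of 26), all but those at LCOR and GALC align at contig positions 113609 to 120857. These positions follow soon after that 5.8S copy, which starts at 112025. The GALC copy, at 23.5-fold and 20.8-fold, lies farthest from the start.

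Mitochondrial DNA was a minor source of matches. Of the members, 4 (0.629%) aligned to it, against 1 of the PHF13-only distal peaks (0.0102%). A pair next to RNF141 on chromosome 11 had 8.65-fold and 8.49-fold for PHF13 and 8.75-fold and 7.87-fold for EZH2. The member closest to AMPD3 (5.03 and 5.00) lay in the same 2.43-kb stretch of chromosome 11 as that pair. The remaining member lay near SRD5A3 (7.08 and 5.62).

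The strength of the peaks is a description, since a member had to pass in both lists. Fold enrichment over the local background had a median of 4.07 for PHF13 (quartiles 3.2 and 5.29, range 1.57 to 23.5) and of 3.91 for EZH2 (quartiles 3.14 and 5.12, range 1.48 to 25.1). The PHF13-only distal peaks had a median of 3.40 and reached at most 9.98, and the EZH2-only distal peaks had a median of 3.04 and reached at most 9.96. All 39 distal PHF13 peaks of 10-fold or more were therefore members, and 31 of these also reached 10-fold for EZH2. Of the 39, 30 aligned to an unplaced contig (11 of them to GL000220.1), 33 were multi-copy and 22 were tandem. Over all members the shares were 49.1% for any unplaced contig, 15.9% for GL000220.1, 85.5% for multi-copy and 42.2% for tandem. The multi-copy share of the 39 was thus about that of all members. Among the 100 distal PHF13 peaks of highest fold, 69 were shared, and among the 100 distal EZH2 peaks of highest fold, 92 were.

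Both libraries gave similar folds at most members. Across the 638 members, the log2 folds of PHF13 and EZH2 had a Pearson r of 0.87, and 588 members (92.2%) had folds within 1.5 times of each other. The points share the input library and, within families, their sequence. The log2 ratio of EZH2 over PHF13 had a median of −0.04 and ran from −1.38, at a tandem repeat near PTPRN2 (6.81-fold for PHF13 and 2.62-fold for EZH2), to 1.13, near PPIAL4H (3.28-fold and 7.19-fold). The summits of both proteins lay a median of 32.5 bp apart (quartiles 11 and 90), and 77.9% of pairs were within 100 bp. This distance is a description too, since the required overlap limits it. The median widths were 236 bp for PHF13 and 249.5 bp for EZH2. Where a member met more than 1 EZH2 peak, that with the closest summit was used. The local background was raised as well. It had a median of 7.31 fragments for PHF13, against 4.77 for PHF13-only distal peaks, and stood at its floor, the genome-wide mean of 4.23, in 12.9% of members against 26.5%, a difference of 13.7 points (interval 10.7 to 16.2).

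**Figure D4:**
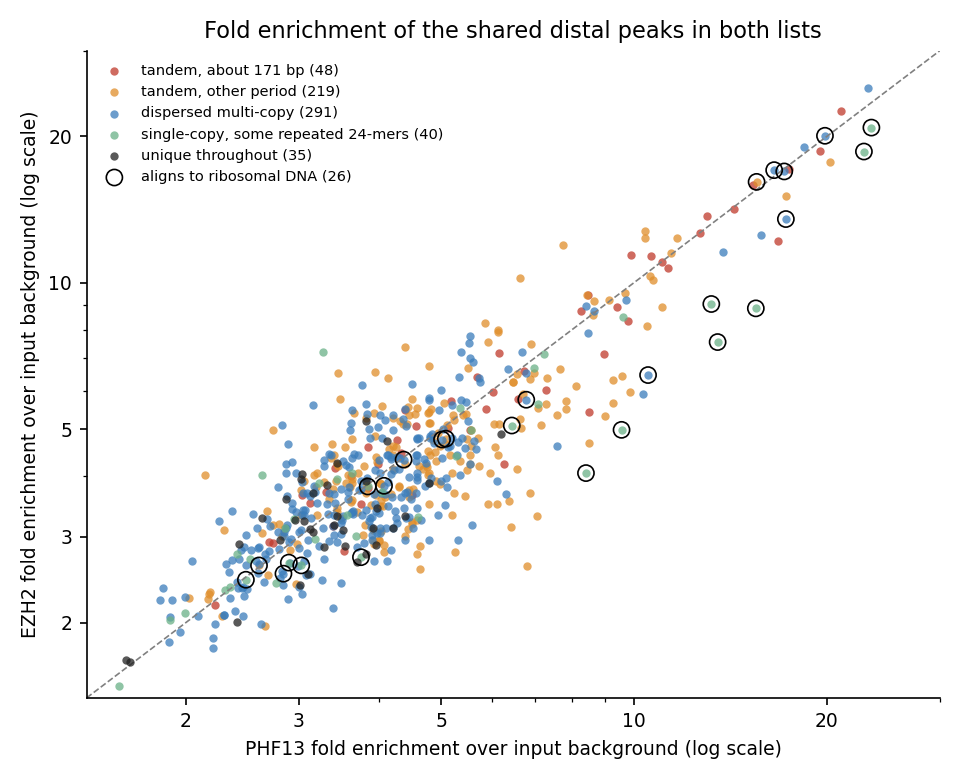
Fold enrichment over input background for EZH2 against PHF13 at 633 shared distal peaks, on log axes, coloured by sequence, with a dashed line of equal folds and rings around the 26 members that align to ribosomal DNA. The 35 members unique throughout (black) stay at or below 6.21-fold for PHF13, while tandem, multi-copy and ribosomal-like members reach 20-fold; the 5 members without fully readable sequence are left out.

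Beyond the ribosomal and telomeric copies named above, the highest folds were mostly in the largest family and on short arrays. The member in an intron of ENSG00000290546 on chromosome 9, whose closest coding gene is FOXD4L2, had 23.2-fold for PHF13 and the highest EZH2 value of all, 25.1-fold. It belongs to the largest family, but matched itself at a fraction of only 0.492 of positions at a shift of 169 bp and so was counted as multi-copy, not tandem. Members of the same family near TRIM51G on chromosome 11 (21.0 and 22.5), ENSG00000284209 on chromosome 16 (19.5 and 18.7) and FAM27E3 on chromosome 9 (17.5 and 17.1) repeated at 170 or 171 bp. The member near NID1, which encodes a basement membrane protein, repeated at 29 bp and had 20.2-fold and 17.7-fold. The member near CNTNAP3B on chromosome 9 was dispersed, with 18.4-fold and 19-fold. Single-copy members of high fold that did not meet the ribosomal limits included a tandem repeat near PLGLB1 on chromosome 2 (9.69 and 9.53), and members near FRG1 (9.63 and 8.50), TMEM106A (7.23 and 7.12) and CENPC (6.99 and 6.69). Single-copy means here only that the median 24-mer occurred once. The PLGLB1 member belongs to the AGCC family of 23 and the CENPC member to the largest family.

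The members were clustered along the genome. Joined within 100 kb, they formed 313 stretches, of which 230 held 1 member and 12 held 10 or more. Those 12 held 176 members and enclosed 82 PHF13-only distal peaks. Chromosome 9 alone carried 98 members (15.4%), against 2.28% of PHF13-only distal peaks. The richest stretch, chr9:68352229-68501766 next to RP11-195B21.3, held 27 members with 1.99-fold to 5.01-fold for PHF13. The intron of TTC34, at chr1:2583623-2629360, held 19 and no other distal PHF13 peak. Of 19 members at chr16:33847072-34022854, 15 were tandem. The stretches around NBPF10 (12 members) and NBPF15 (11 members), of the primate-expanded NBPF family, held none that was tandem. Around FRG1 at the end of chromosome 4, the 12 members had 3.05-fold to 12.4-fold for PHF13. Although gaps of 1 Mb or more had been avoided, 348 members lay within 1 Mb of a gap of 50 kb to 1 Mb.

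**Figure D5:**
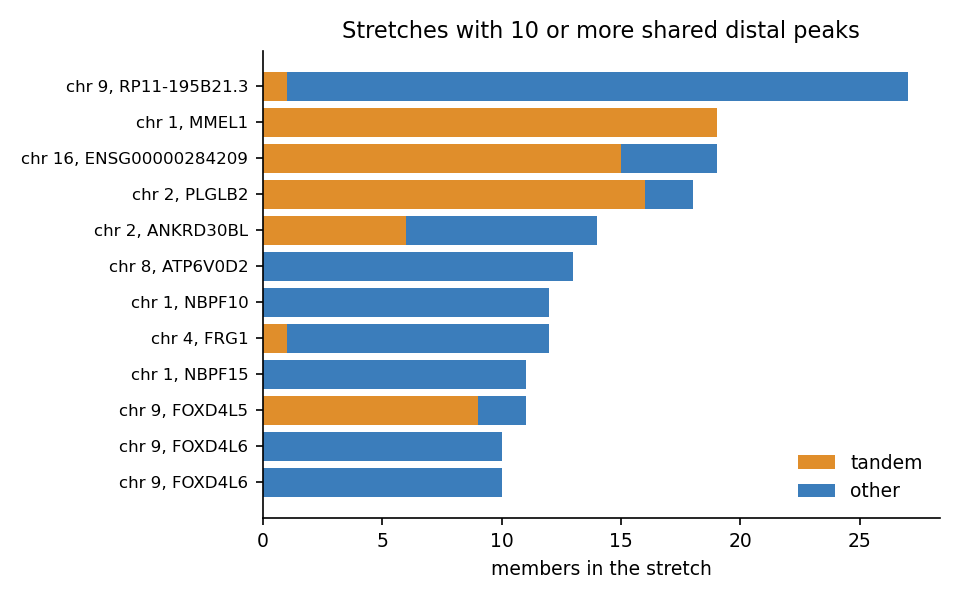
Number of shared distal peaks in each of the 12 stretches with 10 or more, named by chromosome and most frequent closest coding gene and split into tandem and other sequence. The counts run from 27 next to RP11-195B21.3 on chromosome 9 to 10 in either stretch near FOXD4L6.

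Some members were called from tall but barely enriched signal. A PHF13 background of 40 fragments or more was found at 20 members, of which 8 lay on chromosome 19 (4 near FCGBP, 2 near LEUTX and 2 near ZNF780A). In the 10 members at chr19:38991826-40643005, 43 to 118 PHF13 fragments stood over backgrounds of 18.5 to 74.7, which gave folds of 1.57 to 2.46. EZH2 folds there were 1.48 to 2.86. The 27 PHF13-only distal peaks in the same stretch had backgrounds of 17.7 to 67.4.

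Members with no repeated 24-mer at the summit were few and modest. The 35 of them had median folds of 3.32 for PHF13 (range 1.61 to 6.21) and 3.17 for EZH2 (range 1.66 to 5.18), and their summits lay farther apart, with a median of 101 bp against 32.5 bp over all members. The median height was 21 PHF13 fragments, close to the 19 of the PHF13-only distal peaks. In 4 of 35 (11.4%, interval 4.54 to 26) the CpG observed/expected ratio was at least 0.6, against 1.41% of PHF13-only distal peaks of the same kind, a difference of 10.0 points (interval 3.12 to 24.5). They were an exon of EPPK1, which encodes the cytolinker epiplakin (6.21-fold for PHF13 and 4.89-fold for EZH2), an intron of PLEKHA7, a component of adherens junctions (3.44 and 4.27), an intron of PSMD14-DT (4.11 and 4.74) and an intron of LINC00683 near ZNF516 (2.4 and 2.01). The EZH2 peak exceeded 1 kb at 5 of the 35. At PLEKHA7 it was 1898 bp wide around a PHF13 peak of 144 bp, and 80 EZH2 fragments stood at its summit against 21 PHF13 fragments. An exon of TBX21, a T-box factor of T cells, also belonged here, with 3.54-fold and 2.87-fold.

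EZH2 peaks over 1 kb were met by 39 of 638 members (6.11%), where members that shared a peak were each counted. The widest lay at a tandem repeat near TP53TG3B on chromosome 16 (2415 bp, with 4.30-fold for PHF13 and 3.8-fold for EZH2) and in the intron of TTC34 (2414 bp, with 4.78-fold and 4.02-fold). The PLEKHA7 peak came next, ahead of a dispersed repeat at the start of chromosome 12 (1894 bp, with 4.43-fold and 3.72-fold) and a tandem repeat near NKX1-1 (1789 bp, with 4.21-fold and 5.26-fold).

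The AP-1 site, TGACTCA or TGAGTCA on either strand, was scarce at the shared distal summits. It occurred within 200 bp in 11 of 636 members (1.73%, interval 0.968 to 3.07) and in 1339 of 9824 PHF13-only distal peaks (13.6%), a difference of 11.9 points (interval 10.4 to 12.9). In flanks at 1000 bp the shares were 2.78% and 3.31%. The deficit was also present where the median 24-mer occurred once: 1 of 92 such members (1.09%) held a site, against 17.4% of such PHF13-only distal peaks. At summits with no repeated 24-mer it was 1 of 35 (2.86%, interval 0.506 to 14.5) against 19.2%, a difference of 16.3 points (interval 4.63 to 18.9). In EZH2-only distal peaks the share was 2.80%. It was 3.09% in shared peaks near a TSS and 1.43% in shared peaks beside large gaps, so the scarcity was not particular to the distal members. The member with a site and no repeated 24-mer lay in an exon of PTP4A1, a tyrosine phosphatase gene, with 3.70-fold and 2.66-fold. The strongest of the 11 was the member near NID1. A match is a description of the letters and does not show that a factor is bound.

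Other words differed less. The E-box word CACCTG, searched in the same way, gave shares of 18.1% in the members and 19.5% in PHF13-only distal peaks. The TEAD word GGAATG, whose letters also occur in arrays of GGAAT, was found in 7.70% against 15.3%. GC content over 500 bp had a median of 47.9% (quartiles 41.2 and 56.6) against 44.6%. The CpG ratio had a median of 0.256 against 0.181 and was at least 0.6 in 81 of 636 members (12.7%) against 2.23%, a difference of 10.5 points (interval 8.12 to 13.3). Shared peaks near a TSS reached 31.8%. The single-copy members of highest CpG ratio lay near HGH1 (9.27-fold for PHF13 and 6.30-fold for EZH2), in the introns of MYO1D, PLEKHA7 and PSMD14-DT, and in the exon of EPPK1.

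The members lay mostly between genes. Their summits were intergenic in 371 cases (58.2%) against 40.5% of PHF13-only distal peaks, a difference of 17.6 points (interval 13.6 to 21.5), intronic in 252 (39.5%) and exonic in 15 (2.35%). Of the exons, 9 belonged to protein-coding genes, 4 to lncRNA genes and 2 to pseudogenes. They included an exon of POTEE (4.50 and 3.59), of NBPF14 (2.70 and 3.15), of MUC12 (2.74 and 3.17) and of CTBP2, which encodes a transcriptional corepressor (5.39 and 4.80). The closest protein-coding TSS was a median of 52682 bp away, so a gene named here is a position and not a target.

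The genes of the transition that the study is about were not among the closest genes. None of 638 members was closest to 1 of the 15 listed transcription factors of the epithelial-to-mesenchymal transition, the 29 epithelial and mesenchymal markers, the 40 genes of the TGF-beta pathway or the 49 matrix genes. A count of 0 allows a share of up to 0.599% (Wilson). PHF13-only distal peaks were closest to these lists in 25, 23, 64 and 62 cases, or 0.254%, 0.234%, 0.651% and 0.631%. Neighbouring peaks are not independent, so peaks within 100 kb were also joined and each stretch counted once, as an alternative chosen after seeing the data. It gave 0 of 313 stretches for each of these lists, and the interval of the difference then included 0 for all of them (−0.705 to 0.737 points for the TGF-beta pathway and −0.873 to 0.597 for the matrix genes). Genes of axon guidance and neuronal adhesion were the closest in 6 cases (0.940%), among them ROBO2 and CNTNAP2, against 2.67%, but by stretch the difference was −0.76 points (interval −1.89 to 1.48). MAF was the closest of the AP-1 subunit genes, in 1 case.

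Genes of a list of 140 developmental transcription factors were the closest in 16 cases (2.51%) against 1.39%. These cases fell in 8 of 313 stretches (2.56%) against 1.72%, a difference of 0.83 points whose interval included 0 (−0.479 to 3.26). The genes were SALL3 (7 members), SOX11 (4), IRX1 (2), IRX4 (2) and PAX3 (1). Other factors are not on the list, such as NKX1-1, and POU3F1, FOXI2 and TBX21, each closest to a single-copy member. The counts hold for the list only. None of the 16 was single-copy and 11 were tandem, and the distances were long: the 4 members near SOX11 lay 52530 to 63819 bp from its TSS, and those near IRX1 64234 and 271767 bp. Their folds were between 3.17 and 6.13 for PHF13. Genes of a list of duplicated families were the closest in 109 cases (17.1%) against 4.57%, a difference of 12.5 points (interval 9.76 to 15.7). By stretch the shares were 12.5% against 4.62% (interval of the difference 4.58 to 12). How alike the gene copies are was not measured, and the list also holds genes such as ZNF407, TRIM27 and UGT2B4. Of the 109, 97 were multi-copy, a count to be read beside the 85.5% of all members. The 109 included 27 members at NBPF genes, 25 at FRG1, FRG2 or DUX4, 19 at zinc finger genes and 7 at KIR genes, the receptors of natural killer cells. These counts have no PHF13-only share beside them, and many of the members lay in the same stretches.

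A pair of lists came from the study itself. Of its 90 poised genes that TGF-beta activates, PID1 and SULF2 were the closest genes of 3 members (0.470%), against 0.682% of PHF13-only distal peaks, a difference of −0.21 points (interval −0.572 to 0.703). The PID1 member is the ribosomal-like copy above. Those near SULF2, at a 98-bp tandem repeat 108260 and 109136 bp from its TSS, had 7.0-fold and 3.45-fold for PHF13 and shared an EZH2 peak of 6.53-fold. Of the members, 1 lay in any of the 594 super-enhancers that the study lists (0.157%), against 508 PHF13-only distal peaks (5.17%), a difference of 5.01 points (interval 4.17 to 5.49). That member was the telomeric repeat near PLEKHG4B.

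A few regions lay close to the limits of the rule. The smallest overlaps with EZH2 were 10, 14 and 15 bp, while the closest PHF13-only distal peaks stood 2, 4 and 7 bp from an EZH2 peak, with 2.75-fold, 3.14-fold and 3.44-fold for PHF13. In all, 29 PHF13-only distal peaks lay within 100 bp of an EZH2 peak and 249 within 1000 bp. The members closest to a TSS lay 5020, 5029 and 5036 bp away. Of the shared peaks left out by the distance to a TSS, that closest to the limit lay 4991 bp from a TSS near RIMBP2 and had 15.7-fold for PHF13 and 11.3-fold for EZH2.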

How the data were processed

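The authors trimmed reads with Trim Galore 0.4.1, aligned them to hg19 with Bowtie2 2.4.1 at default settings, discarded unmapped pairs and, with Picard, duplicates, and ran MACS2 2.2.7.1 for each antibody's library against the input (versions from the submitters' processing notes). No filter on mapping quality is stated. By default Bowtie2 reports 1 location for a read that matches several. The deposited lists give, at each summit, the fold enrichment (a ratio of pileup to local background), the −log10 p and −log10 q values and a score made from the −log10 q. The weakest deposited −log10 q is 1.30 for PHF13 and 1.31 for EZH2, a looser limit than the methods give for PHF13, and the methods describe broad peaks for EZH2 where the file has the narrow-peak columns.

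Fragments at the summit and the local background were solved from fold and p. For 100% of peaks the solution met both values to within 0.0001 of their size. They give the depth of each peak; total reads are unknown from the lists. Copies of 24-mers, tandem identity, motifs (200 bp) and GC content (500 bp) were computed from the genome sequence with Python 3.11.15, numpy 2.4.6, pandas 2.3.3 and pysam 0.24.0, and alignments made with blastn 2.17.0. Shares have Wilson intervals, differences of shares Newcombe intervals, and medians binomial order-statistic intervals (scipy 1.17.1), tested on simulated data. Positions are on hg19, 1-based.

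Members and lists were chosen with earlier results of these data known. The rule for named regions took the 10 members of highest PHF13 fold, the 10 single-copy members with the highest lower fold, the strongest of the 5 largest families, the 5 widest EZH2 peaks, the 5 single-copy members of highest CpG ratio and members closest to poised genes. The strongest regions of a pair of these families are not reported here. Other regions were named after their values were seen, as were the tandem, ribosomal and stretch definitions. The input coverage was not analysed here.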

Additional observations from a re-analysis of the deposited data

How the results depend on the processing

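Of 47 alternative settings, 19 left a share or median within its reported interval, or a count within 1.5 times, and 28 moved it. The 638 members became 424 when both peaks needed a −log10 q of 5, 410 at over 10000 bp from every TSS, 966 when TSSs of protein-coding genes alone were counted and 290 at least 1 Mb from gaps of 50 kb or more. The multi-copy share became 94.5% when any repeated 24-mer counted, 74.4% with 36-mers, 90.5% under that limit on q and 78.2% with the strongest member of each 100-kb stretch. The summit distance became 44 bp in single-copy members and 24 bp under the limit on q. In those settings the median fold became 3.53 and 4.60 for PHF13 and 3.39 and 4.47 for EZH2, and it was 4.59 and 4.14 with 1 member per stretch. The AP-1 share became 0.943% in 100 bp. GC content became 50% in 200 bp and 49.4% in single-copy members, and the CpG ratio 0.222 in 200 bp. With protein-coding genes only, 25.4% of summits were intronic, 1.41% exonic and 73.2% intergenic, and 4.35% of single-copy members were exonic. The tandem share became 46.3%, 36.2% and 28.0% at 40%, 60% and 70% identity and 46.5% with 1 member per stretch. The cause of these shifts was not tested. Counting stretches once, the differences in closest-gene shares for the TGF-beta pathway, matrix genes, axon guidance and developmental factors no longer excluded 0. Alternatives with 1 member per stretch, other tandem identities, 90% family identity and other ribosomal identities were chosen after seeing the data. Leaving out a replicate and a paired analysis were not possible with 1 library per antibody. Each library rests on few fragments at most summits, with a median of 37 for PHF13 and 40 for EZH2 over the members, and no value could be set against a second library of either antibody. Whether reads of sequence that the assembly lacks were placed on these members was not tested, since reads were not used here.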

Other observations

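A few members fell outside the kinds of sequence described above. On chromosome Y, 3 PHF13 peaks and 2 of the members lie at the start of the chromosome, where the genome sequence used here is written as N. Both are closest to PLCXD1 and had 6.12-fold and 7.27-fold for PHF13 and 5.35-fold and 3.69-fold for EZH2, and their sequence is not described. The CTCF word was found in 1 of 636 members (0.157%) and in 2 of 9824 PHF13-only distal peaks (0.0204%), and the SP/KLF word in 1 (0.157%) and 29 (0.295%). At these counts a difference was not detectable. The TEAD word, at 7.70% of the members, was found in 24.8% of the shared peaks beside large gaps, the highest share of the 4 groups. The members lay nearer to large gaps than PHF13-only distal peaks: 192 (30.1%) were within 5 Mb of a gap of 1 Mb or more, against 6.07%, although the rule kept both groups at least 1 Mb away.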
